A study of Mus musculus with 15 samples.

Results

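The genes described here make ribosomes: 41 mouse genes for subunits of RNA polymerase I (Pol I), for the processing of ribosomal RNA and for other nucleolar proteins. They were taken by symbol from a count table of 27179 genes, and all 41 were found through their Entrez IDs. All 41 also passed the filter on low counts that left 12591 genes for testing. Messenger RNA was sequenced in 15 libraries from CD4 T cells of mice: 5 of the condition called Th1, 5 of Th17 and 5 of Tfh. All libraries had the genotype B6.Cg-Ifngtm3.1Lky-Il17atm1.1Lky, whose altered alleles lie in the genes for the cytokines interferon gamma and IL-17A. Naive CD4 T cells grew for 3.5 days on plate-bound antibodies to CD3 and CD28, under conditions set for each fate, and were then sorted. The series text gives an interferon gamma positive sort for Th1 and a CXCR5 positive, IL-17A negative sort for Tfh. The sources used here do not give the sort of the Th17 cells, the cytokines added to each culture or the age of the mice. They also do not say whether each library of a condition had its own mouse or culture, and the p-values below measure library-to-library spread that may be technical.

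A ribosome starts in the nucleolus, where Pol I copies the ribosomal DNA into a long precursor RNA. Box C/D and box H/ACA particles, small nucleolar RNAs bound by a few core proteins, guide the methylation and pseudouridylation of that precursor, and assembly factors then cut and fold it into the small and the large subunit. In T cells this machinery is switched on after activation, when cells grow before they divide, and the transcription factor Myc is known as an activator of many of its genes through the E-box, CACGTG, a palindrome that reads the same on both strands.

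Promoter sequences were looked at because Myc and its partner Max bind this motif. RefSeq entries on GRCm38.p6, from 250 bases before to 50 bases after the annotated start, were found for 36 of the 41 genes. Fbl, Rrp12, Bop1, Rrs1 and Npm1 had no entry. The E-box was present in 6 of the 36 promoters (16.7%), against 11.9% of 9626 promoters of tested genes, 8.09% of all 27025 promoters of the table and 19% of 100 promoters of other ribosome biogenesis genes. Stretches of 30 bases around those 6 motifs are shown 5′ to 3′ along the gene, in order of the largest fold change of the gene in any comparison, with the E-box in capitals:
Utp20: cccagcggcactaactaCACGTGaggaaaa
Tsr1: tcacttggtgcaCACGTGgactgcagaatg
Mybbp1a: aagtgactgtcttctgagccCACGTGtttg
Wdr43: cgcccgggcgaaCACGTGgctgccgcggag
Nop2: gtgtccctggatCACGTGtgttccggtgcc
Pes1: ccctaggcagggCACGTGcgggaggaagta

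These stretches lie as follows on GRCm38.p6: Utp20 at chr10:88826765-88826794 on the minus strand, Tsr1 at chr11:74898092-74898121 on the plus strand, Mybbp1a at chr11:72441347-72441376 on the plus strand, Wdr43 at chr17:71616220-71616249 on the plus strand, Nop2 at chr6:125131811-125131840 on the plus strand and Pes1 at chr11:3963965-3963994 on the plus strand. Counted from the annotated start, the motif begins at base 38 of Utp20, 25 of Tsr1, 41 of Mybbp1a, 18 of Wdr43 and 3 of Pes1, and 60 bases before the start of Nop2. It thus lay after the start in 5 of 6 cases (83.3%), against 13.8% of 1387 E-boxes in promoters of tested genes. This position was looked at after the motifs had been seen, and it is a description of 6 sequences. Among genes lower in Tfh than Th17 cells, 2 of 13 promoters held an E-box (15.4%), and among those that did not pass the test 4 of 23 did (17.4%).

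Levels below are CPM, counts scaled to a common library size with TMM (a factor per library that equalizes the bulk of the genes), and a gene was called at an edgeR adjusted p under 0.05 over all 12591 genes. Library totals ran from 4.87 M to 25.2 M counts, with a median of 10.5 M. Tfh replicate 1, the shallowest, stood apart on the second principal component, at 94 where the other 14 libraries lay between -35.9 and 23.3. Libraries of 1 condition also differed in how their counts related to the GC content of genes, with a rank correlation over genes from -0.67 to 0.72. The CD4 T cell markers Cd3d, Cd3e, Cd3g, Cd247, Trac, Cd4, Cd2, Cd5 and Cd28 had a summed level of 4390 to 5560 in Th1, 6535 to 7340 in Th17 and 7228 to 9663 CPM in Tfh. Of the genes that define each fate, the Th1 regulator gene Tbx21 averaged 181 in Th1, 2.55 in Th17 and 3.77 CPM in Tfh, and the Tfh regulator gene Bcl6 averaged 13.3, 59.2 and 125 CPM. Il17a, on whose product the Tfh cells were gated, averaged 0.059 in Th1, 225 in Th17 and 15.1 CPM in Tfh. Il17f, for a related Th17 cytokine, averaged 7.56 in Th1, 11250 in Th17 and 4434 CPM in Tfh, and so was high in the Tfh libraries too. Of 7 B cell markers Pax5 was at 0 throughout, and their sum of 13.9 to 25.0 CPM in Th1, mostly Ebf1 (a mean of 17.4), lay above 1.05 to 3.74 in Th17 and 0 to 3.58 in Tfh. Summed markers of myeloid cells, of NK cells and of CD8 T cells stayed at or below 3.40, 6.03 and 26.1 CPM, and 5 gamma-delta T cell markers reached 52.5 in Th1, 20.6 in Th17 and 28.3 in Tfh. Their part in the results below was not tested.

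In Tfh cells 13 of the 41 ribosome biogenesis genes were lower than in Th17 cells, and none was higher. The Pol I subunit gene Polr1b, the box C/D core gene Nop56, and the assembly factor genes Utp20 and Noc2l were all lower by 1.61 to 1.8 times. The 13 genes are 31.7% of the set, and the other 28 did not pass. Over all genes 16.8% were called in this comparison, 9.98% lower and 6.8% higher. None of the 41 was called higher by the reported edgeR model or by limma-voom, and 1, Ubtf, had an unadjusted p under 0.05 in that direction. Ubtf was called higher by DESeq2 (adjusted p = 0.0266) and by edgeR with a replicate block (adjusted p = 0.0299) or with that block and a GC correction (adjusted p = 0.0122). The median log2 fold change of the 41 genes was -0.40, against -0.01 over all genes, and 33 of 41 were negative. In 11 of the 41 genes the Tfh libraries did not overlap the Th17 libraries, which held for 14.5% of all genes. A lower level in bulk RNA can come from fewer cells that express a gene or from less of its RNA per cell, and these cannot be told apart here. Levels in CPM are shares of a library, so they give no amount of RNA per cell.

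Against Th1 cells the picture was split. In Tfh cells 14 of the 41 genes were lower (34.1%) and 3 were higher (7.32%), with 24 that did not pass, where over all genes 49.3% were called, 25.2% lower and 24.1% higher. The share called was thus below that of all genes, and the share lower above it. With library totals alone as the scale, the split moved to 11 lower (26.8%) and 5 higher (12.2%), beside 23.3% and 26.2% of all genes, so that the share lower was then near that of all genes. The median was -0.16 against -0.01 over all genes, and 9 of the 41 genes did not overlap, beside 34.3% of all genes. Th17 cells had 9 of the 41 genes higher than Th1 cells (22%) and 2 lower (4.88%). Over all genes 36.9% were called in that comparison, 19.0% higher and 17.8% lower, so the share higher was near that of all genes. With the size factors of DESeq2 in edgeR (RLE), the split was 6 higher (14.6%) and 3 lower (7.32%), beside 16.6% and 19.5% of all genes. The median was 0.20 against 0.03, and 4 genes did not overlap, beside 28.8% of all genes. The 3 comparisons share their libraries in pairs and are not independent of each other.

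**Figure D1:**
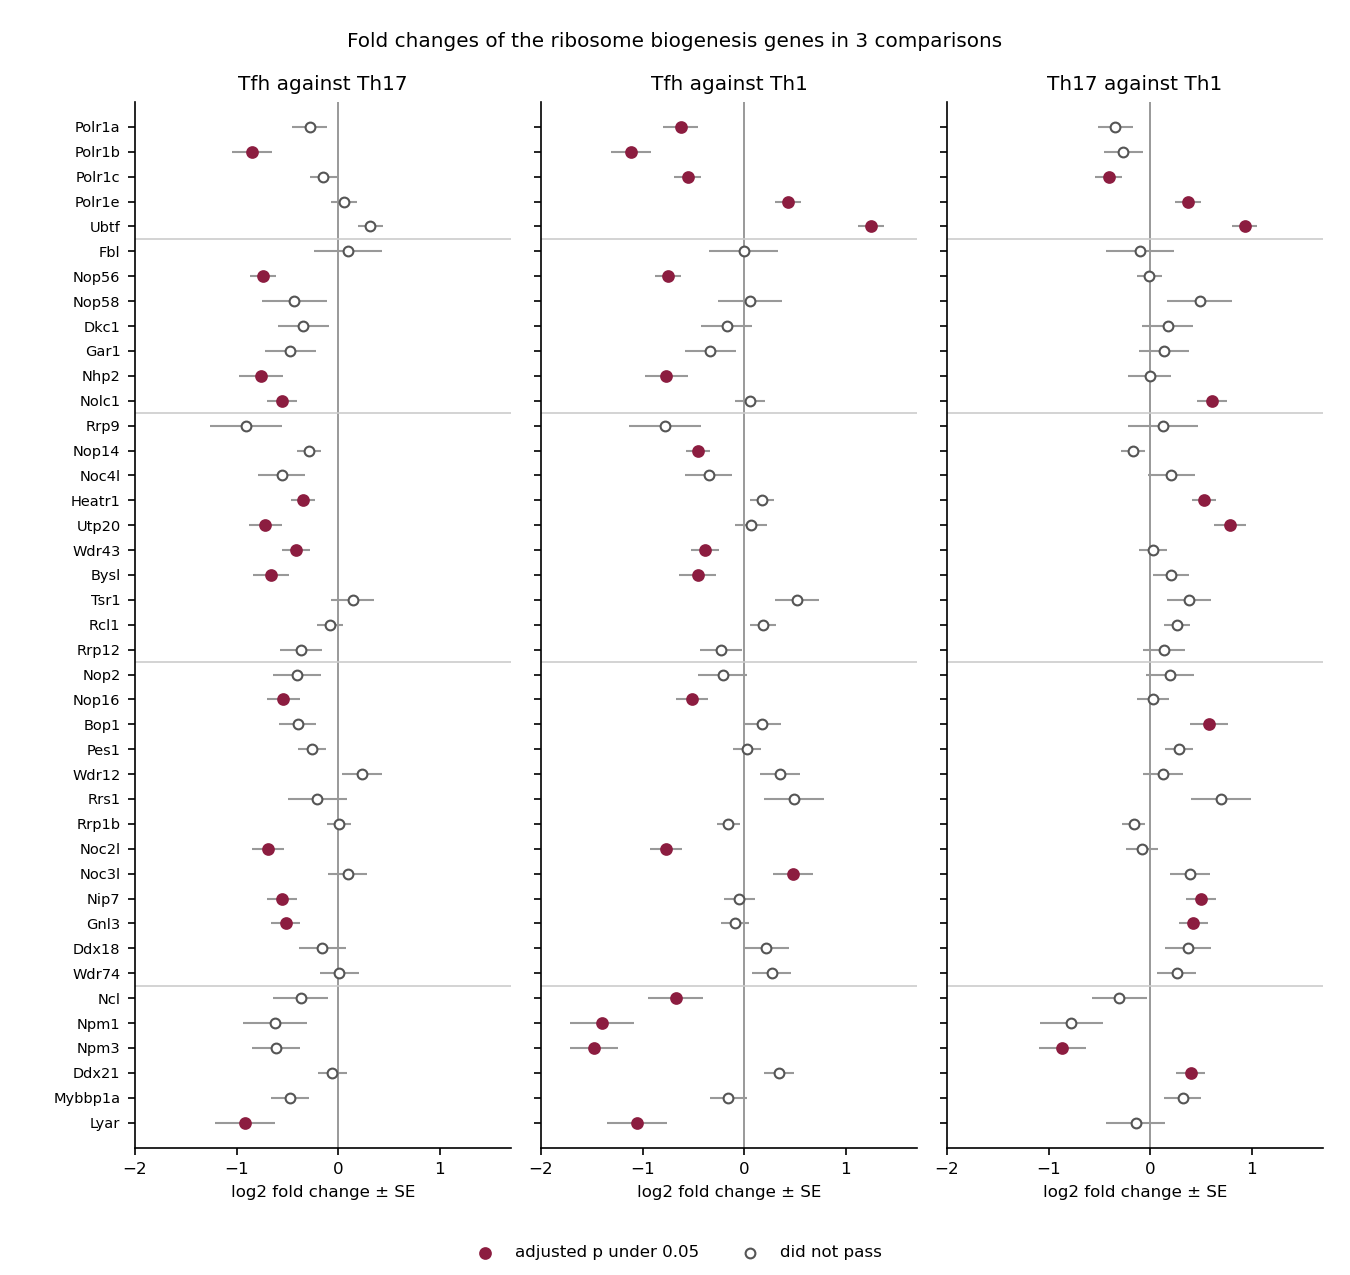
Log2 fold change ± SE of each of the 41 genes in the 3 comparisons, with filled points for edgeR adjusted p under 0.05 and grey lines between the groups of roles. In Tfh against Th17 cells all 13 filled points lie left of 0, while in Th17 against Th1 cells 9 of 11 lie right of it.

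Ranked by mean level, Th17 cells were highest in 22 of the 41 genes, Th1 cells in 13 and Tfh cells in 6. Tfh cells were lowest in 23, Th1 cells in 16 and Th17 cells in 2, Fbl and Rrp1b, neither of which passed in any comparison. The order Th17, Th1, Tfh held for 12 genes, Th1, Th17, Tfh for 11 and Th17, Tfh, Th1 for 10. Between 24 and 30 genes did not pass in each comparison, so many neighbours in these orders did not differ beyond their spread. Summed over the 41 genes without Ncl and Npm1, the level was 2763 ± 257.9 in Th1, 3295 ± 240 in Th17 and 2618 ± 229.2 CPM in Tfh (SD, n = 5). With Ncl and Npm1 included it was 5670 ± 1387, 5338 ± 698.3 and 4099 ± 523.2 CPM, so that those 2 genes moved Th1 from near Tfh to the top.

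**Figure D2:**
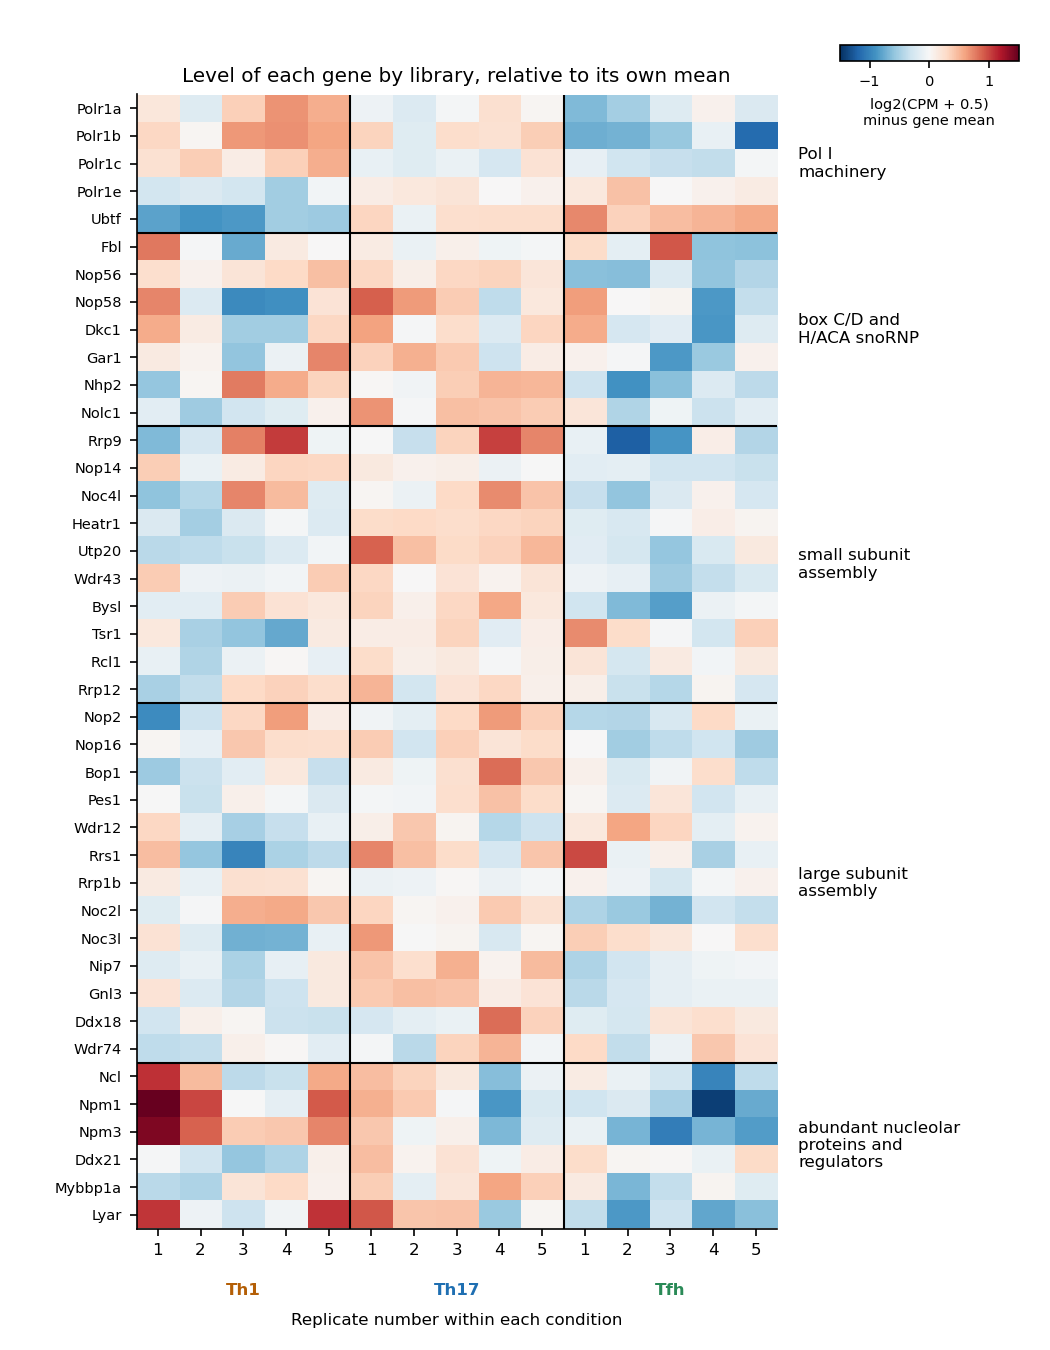
Level of each gene (rows, by role) in each of the 15 libraries (columns), as log2(CPM + 0.5) minus the mean of that gene, from blue (below its mean) to red (above). Ubtf is blue in all Th1 libraries, Nop56 in all Tfh libraries, and Npm1, Ncl and Nop58 vary between libraries of the same condition.

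The Pol I group held both directions. Polr1b, which encodes a large catalytic subunit of Pol I (Entrez ID 20017, chr2:129100970-129128060 on GRCm38.p6), stood at 31.3, 25.5, 39.7, 40.7 and 38.1 CPM in Th1 replicates 1 to 5, at 31.7, 22.1, 30.3, 29.4 and 32.5 in Th17 and at 14.9, 15.1, 16.8, 23.2 and 10.97 in Tfh. All Tfh libraries but replicate 4 lay below every other library, and replicate 4 lay just above the lowest Th17 library. Polr1b was 1.8-fold lower in Tfh than Th17 cells (log2 fold change -0.85 ± 0.20 SE, edgeR adjusted p = 0.00597) and 2.16-fold lower than in Th1 cells (log2 fold change -1.11 ± 0.20 SE, edgeR adjusted p = 0.000136). The difference between Th17 and Th1 cells did not pass (log2 fold change -0.26 ± 0.19 SE, edgeR adjusted p = 0.313).

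Ubtf encodes UBF, the factor that binds ribosomal DNA and holds it open for Pol I (Entrez ID 21429, chr11:102304560-102323649). It stood at 89.8, 83.8, 86.2, 109.7 and 108 CPM in Th1 replicates 1 to 5, at 196, 147, 188, 189 and 189 in Th17 and at 260, 199.9, 216, 223 and 234 in Tfh. No library of any condition overlapped those of another, in the order Tfh above Th17 above Th1. Ubtf was 2.37-fold higher in Tfh than Th1 cells (log2 fold change 1.25 ± 0.12 SE, edgeR adjusted p = 1.44e-07) and 1.91-fold higher in Th17 than Th1 cells (log2 fold change 0.93 ± 0.12 SE, edgeR adjusted p = 8.38e-06). Tfh against Th17 cells gave 0.32 ± 0.12 and did not pass (edgeR adjusted p = 0.0897), although the libraries did not overlap.

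Polr1a, which encodes the other large catalytic subunit, averaged 70.97 ± 15.9 in Th1, 55.8 ± 6.56 in Th17 and 45.9 ± 9.12 CPM in Tfh (SD, n = 5), and was lower in Tfh than Th1 cells (log2 fold change -0.63 ± 0.17 SE, edgeR adjusted p = 0.00587). Polr1c, a subunit that Pol I shares with Pol III, averaged 70.7 ± 8.12 in Th1, 53.2 ± 7.09 in Th17 and 48.1 ± 5.17 CPM in Tfh. It was lower than in Th1 cells both in Tfh (log2 fold change -0.56 ± 0.13 SE, edgeR adjusted p = 0.00204) and in Th17 cells (log2 fold change -0.41 ± 0.13 SE, edgeR adjusted p = 0.0217). Polr1e, a Pol I subunit that helps it start, went the other way, at 41.9 ± 4.96 in Th1, 54.2 ± 2.84 in Th17 and 56.5 ± 7.001 CPM in Tfh. Polr1e was higher in Tfh than Th1 cells (log2 fold change 0.43 ± 0.13 SE, edgeR adjusted p = 0.0099) and in Th17 than Th1 cells (log2 fold change 0.37 ± 0.13 SE, edgeR adjusted p = 0.0299). All 5 genes of the group thus passed in Tfh against Th1 cells, 3 lower and 2 higher. Over all genes 49.3% were called in that comparison, 25.2% lower and 24.1% higher. The call of Polr1e in Th17 against Th1 cells was lost in 8 of the 15 fits without 1 library (edgeR adjusted p up to 0.141 without Th1 replicate 4), and that of Polr1c without Th17 replicate 2 (edgeR adjusted p = 0.0522).

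In the small nucleolar particle group, 3 of 7 genes were lower in Tfh than Th17 cells (42.9%, beside 9.98% of all genes). Nop56, a scaffold protein of box C/D particles (Entrez ID 67134, chr2:130274367-130279313), stood at 89.3, 78.2, 85.6, 91.7 and 102 CPM in Th1 replicates 1 to 5, at 92.4, 79.4, 92.8, 94.1 and 85.04 in Th17 and at 48.3, 47.6, 64.8, 49.5 and 55.1 in Tfh. The Tfh libraries lay below all others, while Th1 and Th17 libraries shared a range. Nop56 overlaps Idh3b and small nucleolar RNA genes, which together had more counts, 16173 against 12699, so its values are uncertain if reads were not assigned by strand. Nop56 was 1.67-fold lower in Tfh than Th17 cells (log2 fold change -0.74 ± 0.12 SE, edgeR adjusted p = 0.000394) and 1.68-fold lower than in Th1 cells (log2 fold change -0.75 ± 0.12 SE, edgeR adjusted p = 6.21e-05). Nop58, its partner in the same particle, averaged 180.2 ± 91.5 in Th1, 252 ± 79.9 in Th17 and 187 ± 70.2 CPM in Tfh and did not pass in any comparison. Within Th1 alone Nop58 ran from 98.1 to 317 CPM.

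Nhp2, a core protein of box H/ACA particles (Entrez ID 52530, chr11:51619773-51623718), stood at 77.4, 118, 199.6, 171 and 147 CPM in Th1 replicates 1 to 5, at 118, 112, 150.1, 166 and 164 in Th17 and at 93.8, 61.6, 74.8, 101 and 88.5 in Tfh. Every Tfh library lay below every Th17 library, and the Th1 libraries spread from 77.4 to 199.6 CPM across both. Nhp2 was lower in Tfh than Th17 cells (log2 fold change -0.76 ± 0.21 SE, edgeR adjusted p = 0.0183) and lower than in Th1 cells (log2 fold change -0.77 ± 0.21 SE, edgeR adjusted p = 0.00587). The other H/ACA genes, Dkc1 for the pseudouridine synthase and Gar1, averaged 57.8 ± 21.3 and 18.8 ± 5.15 CPM in Tfh, their lowest condition, and passed in no comparison. The methyltransferase gene Fbl was listed at only 7.55 ± 3.04 in Th1, 6.95 ± 0.489 in Th17 and 7.42 ± 3.87 CPM in Tfh. Fbl has a gene copy with a -ps name in the annotation, and how reads that match both were counted is not given in the sources used here, so its level is uncertain.

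Nolc1, a chaperone of both kinds of particle (Entrez ID 70769, chr19:46075847-46085543), stood at 229.6, 176, 209.6, 225 and 268 CPM in Th1 replicates 1 to 5, at 409, 253, 349, 344 and 335 in Th17 and at 291, 187, 244, 205 and 229 in Tfh. Apart from replicate 2, the Th17 libraries lay above all libraries of the other conditions. Nolc1 was higher in Th17 than Th1 cells (log2 fold change 0.61 ± 0.15 SE, edgeR adjusted p = 0.00334) and lower in Tfh than Th17 cells (log2 fold change -0.55 ± 0.15 SE, edgeR adjusted p = 0.0155), and Tfh and Th1 cells differed by 0.06 ± 0.15 (edgeR adjusted p = 0.771). Without Th17 replicate 1 the Tfh against Th17 call was just lost (edgeR adjusted p = 0.0506), as was that of Nhp2 without Th17 replicate 5, Tfh replicate 2 or Tfh replicate 3 (up to 0.0556).

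**Figure D3:**
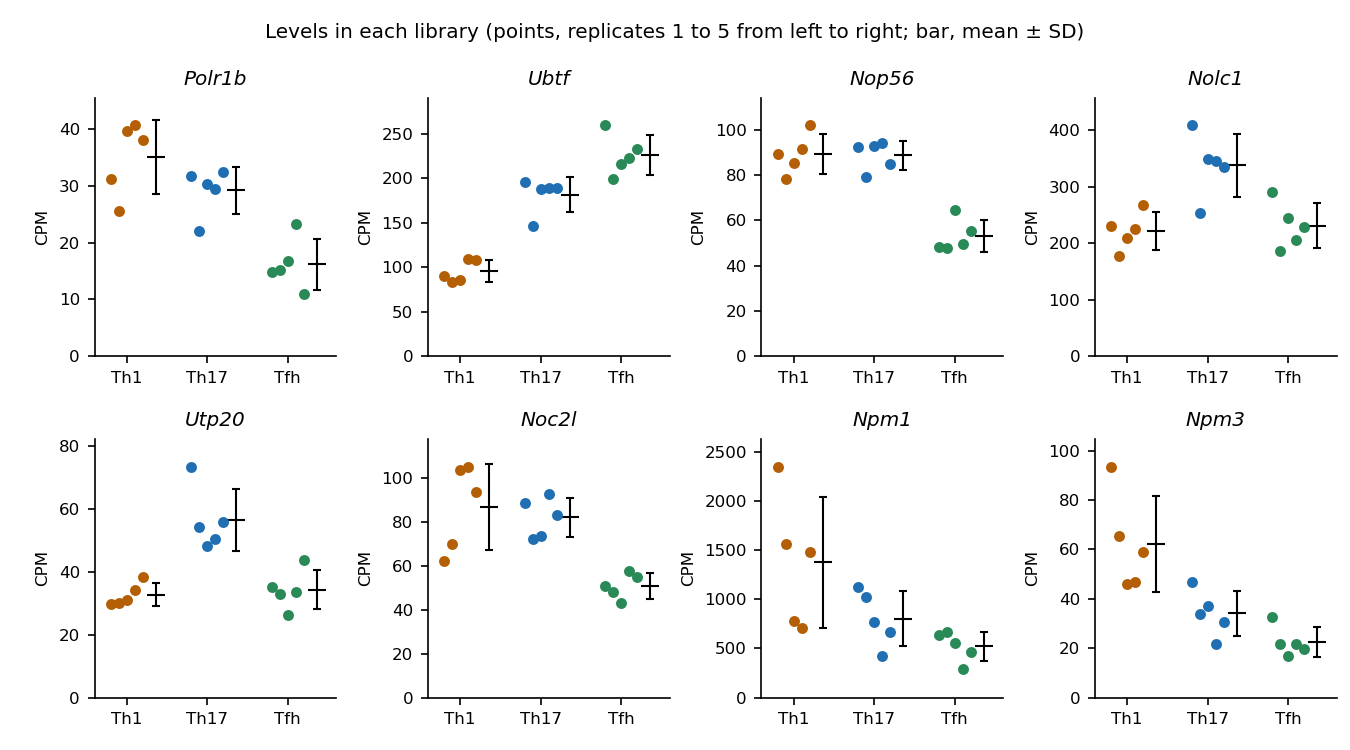
CPM of 8 of the genes in each library, with the mean ± SD of 5 libraries beside the points and each axis starting at 0. Tfh libraries lie below all Th17 libraries for Nop56, Utp20 and Noc2l, Th17 libraries stand highest for Utp20 and mostly for Nolc1, and Npm1 has a wide range within Th1.

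Small subunit assembly had 4 of 10 genes lower in Tfh than Th17 cells, Heatr1, Utp20, Wdr43 and Bysl (40%, beside 9.98% of all genes). It had 2 of 10 higher in Th17 than Th1 cells (20%), near the 19.0% of all genes. Utp20, a large scaffold of the early small subunit precursor (Entrez ID 70683, chr10:88746607-88826814), stood at 29.6, 30.1, 31.1, 34.1 and 38.4 CPM in Th1 replicates 1 to 5, at 73.4, 54.1, 48.3, 50.4 and 55.8 in Th17 and at 34.99, 32.9, 26.2, 33.5 and 43.8 in Tfh. All 5 Th17 libraries lay above all others, and the Th1 and Tfh ranges overlapped. Utp20 was 1.72-fold higher in Th17 than Th1 cells (log2 fold change 0.79 ± 0.16 SE, edgeR adjusted p = 0.000662) and 1.64-fold lower in Tfh than Th17 cells (log2 fold change -0.72 ± 0.16 SE, edgeR adjusted p = 0.00392). Its promoter is the first of the sequences shown above.

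Heatr1, a factor that links Pol I transcription to processing, stood at 70.5, 57.4, 70.5, 80.6 and 71.3 CPM in Th1 replicates 1 to 5, at 99.3, 101, 98.99, 102 and 104 in Th17 and at 72.3, 69.5, 81.2, 87.99 and 84.6 in Tfh. The Th17 libraries spanned only 98.99 to 104 CPM and lay above all others. Heatr1 was higher in Th17 than Th1 cells (log2 fold change 0.53 ± 0.12 SE, edgeR adjusted p = 0.00161). Its Tfh against Th17 difference was smaller and near the threshold (log2 fold change -0.35 ± 0.12 SE, edgeR adjusted p = 0.0481), and was lost in 12 of 15 fits without 1 library (up to 0.13 without Tfh replicate 2). Wdr43, of the same early complex as Heatr1, averaged 99.1 ± 17.4 in Th1, 101 ± 8.84 in Th17 and 75.97 ± 9.44 CPM in Tfh. It was lower in Tfh cells than in Th17 (log2 fold change -0.41 ± 0.14 SE, edgeR adjusted p = 0.0455) and than in Th1 cells (log2 fold change -0.38 ± 0.14 SE, edgeR adjusted p = 0.0267). The first of those calls was lost in 11 of 15 fits without 1 library (up to 0.135 without Tfh replicate 3) and the second in 4 (up to 0.0665 without Th1 replicate 1).

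Bysl, which acts late on the small subunit precursor, averaged 34.3 ± 5.7 in Th1, 39.5 ± 5.48 in Th17 and 24.96 ± 5.95 CPM in Tfh and was lower in Tfh than Th17 cells (log2 fold change -0.66 ± 0.18 SE, edgeR adjusted p = 0.0162) and than Th1 cells (log2 fold change -0.46 ± 0.18 SE, edgeR adjusted p = 0.042). The first call was lost without Tfh replicate 3 (edgeR adjusted p = 0.0519) and the second in 7 of 15 such fits (up to 0.0948 without Th1 replicate 3). Bysl overlaps Ccnd3, which had more counts, 47732 against 5458, and whether reads were assigned by strand is not given in the sources used here, so this value is uncertain. Nop14, of the early precursor, was lower in Tfh than Th1 cells, at 62.2 ± 3.73 against 85.3 ± 11.1 CPM (log2 fold change -0.46 ± 0.12 SE, edgeR adjusted p = 0.00394). Noc4l, its binding partner (107 ± 44.1 in Th1, 124 ± 27.6 in Th17 and 83.9 ± 13.9 CPM in Tfh), and Rrp9, a protein of the particle that starts the cuts for the small subunit, had lower means in Tfh cells but passed in no comparison. Rrp9 stood at 8.55, 11.6, 23.6, 29.2 and 13.3 CPM in Th1 replicates 1 to 5, at 13.8, 10.8, 17.6, 28.8 and 23.3 in Th17 and at 12.8, 5.65, 7.27, 14.8 and 10.1 in Tfh. The ranges of the 3 conditions overlapped, and its log2 fold change in Tfh against Th17 cells was -0.90 ± 0.35 (edgeR adjusted p = 0.0925). Tsr1, a late factor, averaged 22.7 ± 6.93 in Th1, 29.4 ± 3.67 in Th17 and 32.6 ± 8.58 CPM in Tfh, with 0.52 ± 0.22 in Tfh against Th1 cells (edgeR adjusted p = 0.0533). Rcl1, for a cut in the precursor, and Rrp12, for export of subunit precursors, did not pass in any comparison, with log2 fold changes between -0.36 and 0.26.

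Large subunit assembly had 4 of 13 genes lower in Tfh than Th17 cells, Nop16, Noc2l, Nip7 and Gnl3 (30.8%, beside 9.98% of all genes). Noc2l, of the complex that carries the large subunit precursor out of the nucleolus (Entrez ID 57741, chr4:156234655-156247616), stood at 62.4, 70.1, 104, 105 and 93.7 CPM in Th1 replicates 1 to 5, at 88.9, 72.5, 73.8, 92.8 and 83.2 in Th17 and at 51.04, 48.03, 43.05, 57.9 and 55.2 in Tfh. Every Tfh library lay below every library of the other conditions. Noc2l was 1.61-fold lower in Tfh than Th17 cells (log2 fold change -0.69 ± 0.16 SE, edgeR adjusted p = 0.00501) and 1.71-fold lower than in Th1 cells (log2 fold change -0.77 ± 0.16 SE, edgeR adjusted p = 0.000491). Its partner Noc3l had the opposite order, at 35.2 ± 9.97 in Th1, 46.01 ± 11.8 in Th17 and 49.03 ± 4.58 CPM in Tfh. Noc3l was higher in Tfh than Th1 cells only at the threshold (log2 fold change 0.48 ± 0.20 SE, edgeR adjusted p = 0.0496), a call lost in 12 of 15 fits without 1 library (up to 0.159 without Th1 replicate 4).

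Nip7, which binds the large subunit precursor, stood at 33.9, 35.98, 27.9, 35.8 and 43.1 CPM in Th1 replicates 1 to 5, at 52.7, 46.2, 56.3, 40.3 and 54.5 in Th17 and at 28.03, 31.9, 35.5, 37.1 and 37.7 in Tfh. The Th17 libraries lay above all Tfh libraries and all Th1 libraries but replicate 5. Nip7 was lower in Tfh than Th17 cells (log2 fold change -0.55 ± 0.15 SE, edgeR adjusted p = 0.0153) and higher in Th17 than Th1 cells (log2 fold change 0.50 ± 0.15 SE, edgeR adjusted p = 0.0124). Gnl3, which encodes the nucleolar GTPase nucleostemin, stood at 118, 88.6, 75.02, 82.4 and 113 CPM in Th1 replicates 1 to 5, at 134, 139.8, 138, 111 and 118 in Th17 and at 77.3, 86.02, 93.4, 94.95 and 95.04 in Tfh. Every Tfh library lay below every Th17 library. Gnl3 was lower in Tfh than Th17 cells (log2 fold change -0.52 ± 0.14 SE, edgeR adjusted p = 0.0146) and higher in Th17 than Th1 cells (log2 fold change 0.42 ± 0.14 SE, edgeR adjusted p = 0.0218). Nop16 averaged 53.9 ± 7.71 in Th1, 54.9 ± 9.46 in Th17 and 37.8 ± 6.18 CPM in Tfh and was lower in Tfh cells than in Th17 (log2 fold change -0.54 ± 0.16 SE, edgeR adjusted p = 0.0256) and than in Th1 cells (log2 fold change -0.52 ± 0.16 SE, edgeR adjusted p = 0.0124). The Tfh against Th17 calls were lost in 6 of 15 fits without 1 library for Nop16 (up to 0.0771 without Th17 replicate 3), in 2 for Nip7 (up to 0.059 without Th17 replicate 3) and in 1 for Gnl3 (0.0529 without Th17 replicate 3). The Th17 against Th1 calls were lost in 3 for Nip7 (up to 0.0619 without Th17 replicate 3) and in 4 for Gnl3 (up to 0.0996 without Th1 replicate 4).

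Bop1, Pes1 and Wdr12 form the PeBoW complex, which processes the large subunit RNA. Bop1 averaged 37.3 ± 7.17 in Th1, 55.7 ± 14.2 in Th17 and 42.3 ± 7.52 CPM in Tfh and was higher in Th17 than Th1 cells (log2 fold change 0.58 ± 0.18 SE, edgeR adjusted p = 0.0197), a call lost in 3 of 15 fits without 1 library (up to 0.0993 without Th17 replicate 4). Pes1 averaged 75.8 ± 8.65 in Th1, 92.4 ± 13.3 in Th17 and 77.3 ± 10.3 CPM in Tfh. Wdr12 averaged 30.6 ± 6.82 in Th1, 33.2 ± 7.84 in Th17 and 39.02 ± 7.74 CPM in Tfh, and neither gene passed in any comparison. The methyltransferase gene Nop2 (84.8 ± 32.2 in Th1, 97.2 ± 21.7 in Th17 and 73.2 ± 16.7 CPM in Tfh), Rrs1, which helps to dock the small ribosomal RNA of the large subunit, Rrp1b (92.2 ± 9.34 in Th1, 82.4 ± 2.67 in Th17 and 82.8 ± 7.58 CPM in Tfh), the helicase gene Ddx18 (11.2 ± 1.7 in Th1, 14.6 ± 5.21 in Th17 and 13.02 ± 2.13 CPM in Tfh) and Wdr74 (33.00 ± 4.83 in Th1, 39.5 ± 9.81 in Th17 and 39.9 ± 8.35 CPM in Tfh) did not pass either. Among these Rrs1 had the largest value, 0.70 ± 0.29 in Th17 against Th1 cells (edgeR adjusted p = 0.0721).

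Of the 6 abundant nucleolar proteins and regulators, Npm1, Npm3, Ncl and Lyar had their highest means in Th1 cells and were lower in Tfh than Th1 cells. These 4 are 66.7% of the group, beside 25.2% of all genes called lower in that comparison. Npm1 encodes nucleophosmin, a chaperone that shuttles between nucleolus and cytoplasm (Entrez ID 18148, chr11:33152498-33164142). It stood at 2354, 1561, 778, 709 and 1481 CPM in Th1 replicates 1 to 5, at 1131, 1027, 767, 426 and 664 in Th17 and at 634, 669.5, 551, 292 and 461 in Tfh. All Tfh libraries lay below all Th1 libraries, and the Th17 libraries reached into both ranges. Npm1 was 2.64-fold lower in Tfh than Th1 cells (log2 fold change -1.40 ± 0.32 SE, edgeR adjusted p = 0.00126), and the steps from Th1 to Th17 (log2 fold change -0.78 ± 0.31 SE, edgeR adjusted p = 0.0597) and from Th17 to Tfh cells (log2 fold change -0.62 ± 0.31 SE, edgeR adjusted p = 0.196) did not pass. The Th1 to Th17 step did pass in 11 of 27 alternatives, among them RLE size factors (edgeR adjusted p = 0.0429), DESeq2 (adjusted p = 0.0206), the replicate block (edgeR adjusted p = 0.000575) and the GC correction (edgeR adjusted p = 6e-05). Npm3, of the same family (Entrez ID 18150, chr19:45747734-45749565), stood at 93.5, 65.6, 46.03, 46.9 and 58.8 CPM in Th1 replicates 1 to 5, at 46.8, 33.7, 37.1, 21.9 and 30.6 in Th17 and at 32.7, 21.5, 16.9, 21.5 and 19.5 in Tfh. Its Tfh libraries also lay below all Th1 libraries. Npm3 was 2.79-fold lower in Tfh than Th1 cells (log2 fold change -1.48 ± 0.24 SE, edgeR adjusted p = 4.14e-05) and 1.82-fold lower in Th17 than Th1 cells (log2 fold change -0.87 ± 0.23 SE, edgeR adjusted p = 0.00605). Npm3 has a copy with a -ps name in the annotation, so reads shared with that copy make its level uncertain. Copies with other kinds of name were not looked for, so whether Npm1 or other genes share reads with such copies was not checked.

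Ncl encodes nucleolin, which binds the precursor RNA. It stood at 2497, 1613, 886, 923 and 1733 CPM in Th1 replicates 1 to 5, at 1604, 1470, 1286, 747 and 1097 in Th17 and at 1265, 1089, 959.7, 585 and 897 in Tfh, with overlap between all conditions. Ncl was lower in Tfh than Th1 cells at the threshold (log2 fold change -0.67 ± 0.27 SE, edgeR adjusted p = 0.046), and the call was lost in 7 of 15 fits without 1 library (up to 0.161 without Th1 replicate 1). Lyar, a nucleolar growth regulator (Entrez ID 17089, chr5:38220471-38234306), stood at 85.6, 38.3, 32.4, 39.02 and 86.7 CPM in Th1 replicates 1 to 5, at 77.7, 54.3, 54.5, 27.4 and 41.2 in Th17 and at 31.1, 22.04, 32.7, 23.3 and 25.98 in Tfh. Th1 replicates 1 and 5 and Th17 replicate 1 were high, and the lower libraries of both conditions reached the Tfh range. Lyar was lower in Tfh than Th1 cells (log2 fold change -1.06 ± 0.30 SE, edgeR adjusted p = 0.00651) and than Th17 cells (log2 fold change -0.92 ± 0.30 SE, edgeR adjusted p = 0.0408), the latter call being lost in 9 of 15 fits without 1 library (up to 0.127 without Th17 replicate 1). Ddx21, a helicase that acts with Pol I, averaged 185 ± 36.1 in Th1, 244 ± 34.6 in Th17 and 234 ± 28.4 CPM in Tfh and was higher in Th17 than Th1 cells (log2 fold change 0.40 ± 0.14 SE, edgeR adjusted p = 0.0365), a call lost in 9 of 15 (up to 0.146 without Th1 replicate 4). Mybbp1a averaged 170.3 ± 39.9 in Th1, 212 ± 38.3 in Th17 and 153 ± 33.2 CPM in Tfh and passed in no comparison.

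Some of this spread moved with GC content. The genes with the lowest GC content in transcripts were Npm1 (41.2%) and Nop58 (42.1%), with Ncl at 44.2%, and Rrp9 had the highest (59.2%). In each condition 2 libraries were compared, 1 from each end of the rank correlation with GC content given above (Th1 replicates 3 and 4 tied at 0.72). Th1 replicate 3 over replicate 1 gave log2 ratios of -1.60 for Npm1, -1.69 for Nop58 and -1.49 for Ncl, but 1.47 for Rrp9 and 1.34 for Noc4l. Th17 replicate 4 over replicate 1 gave -1.41 for Npm1 and 1.06 for Rrp9, and Tfh replicate 4 over replicate 2 gave -1.20 and 1.39. Not all genes followed GC content: Fbl (56.7%) and Gar1 (56.9%) gave -1.66 and -0.75 in the Th1 pair. Across the 41 genes, which share these libraries and are not independent, the rank correlation of this ratio with GC content was 0.58 in Th1, 0.57 in Th17 and 0.55 in Tfh. The pairs were chosen for their opposite relation to GC content over genes, so positive values followed from that choice and are a description only. With a GC correction per library, Npm1 gave -0.62 ± 0.14 SE in Tfh against Th17 cells (edgeR adjusted p = 0.00162) where the fit without it gave -0.62 ± 0.31 (edgeR adjusted p = 0.196). The same correction brought Rrp9 past the threshold in that comparison (edgeR adjusted p = 0.00225), while Polr1c no longer passed in Th17 against Th1 cells (edgeR adjusted p = 0.0564), nor did Heatr1 in Tfh against Th17 cells (edgeR adjusted p = 0.0585).

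**Figure D4:**
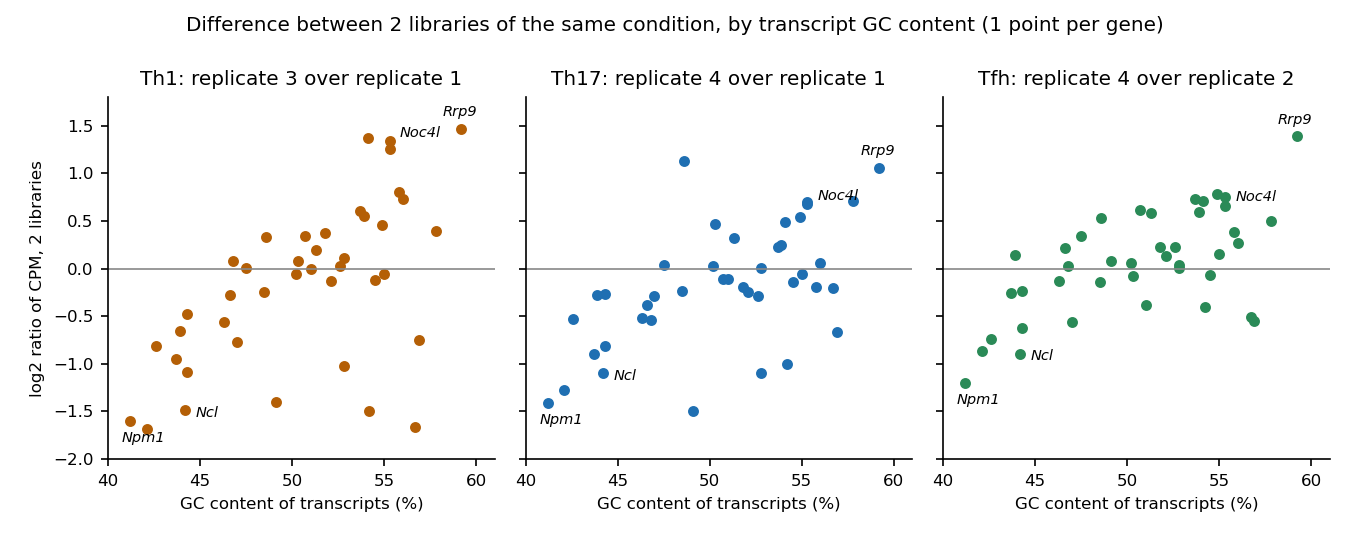
Log2 ratio of CPM between 2 libraries of the same condition, for each of the 41 genes, against the GC content of its transcripts in percent. In all 3 conditions Npm1 and Ncl, at low GC content, lie below 0 and Rrp9 and Noc4l, at high GC content, lie above it. Not all genes follow: Fbl (56.7%) and Gar1 (56.9%) lie below 0 in all 3 conditions. The 2 libraries were chosen from the ends of the rank correlation with GC content, so a general rise from left to right follows from that choice.

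Single libraries bore on the counts. Leaving out each library in turn gave 7 to 14 of the 41 genes called in Tfh against Th17 cells, where 13 were called with all. That is 17.1% to 34.1% of the 41, beside 12.6% to 18.7% of all genes in the same fits. The count was 7 without Th17 replicate 3, Th17 replicate 5 or Tfh replicate 3, 8 without Th17 replicate 1 or Tfh replicate 2, and 12 without Tfh replicate 1, the library that stood apart. Polr1b, Nop56, Utp20 and Noc2l kept their calls in all 15 such fits. In Tfh against Th1 cells the count ran from 13 to 20 beside 17 (31.7% to 48.8%, with 45.1% to 49.6% of all genes), with 15 without Tfh replicate 1. Of the 14 lower genes 11 kept their calls throughout: Polr1a, Polr1b, Polr1c, Nop56, Nhp2, Nop14, Nop16, Noc2l, Npm1, Npm3 and Lyar, and so did Polr1e and Ubtf of the 3 higher genes. In Th17 against Th1 cells the count ran from 7, without Th17 replicate 3 or Th17 replicate 5, to 14 beside 11 (17.1% to 34.1%, with 32.1% to 39.5% of all genes). Ubtf, Nolc1, Heatr1 and Utp20 stayed higher and Npm3 lower in all 15 fits.

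Other genes of the pathway, 119 of a list of 122 that could be matched, were counted in the same way. In Tfh against Th17 cells 16 were lower (13.4%) and 2 higher (1.68%), beside 9.98% and 6.8% of all genes, with a median of -0.24. In Tfh against Th1 cells 25 were lower (21%) and 15 higher (12.6%), both below the 25.2% and 24.1% of all genes. In Th17 against Th1 cells 24 were higher (20.2%) and 8 lower (6.72%), beside 19.0% and 17.8% of all genes. The share higher was thus near that of all genes. With RLE size factors those counts were 14 and 9, beside 16.6% and 19.5% of all genes. Ruvbl2, a helicase that helps to assemble box C/D particles, averaged 127 ± 27.1 in Th1, 109.6 ± 12.96 in Th17 and 53.8 ± 8.18 CPM in Tfh and was lower in Tfh than Th17 cells (log2 fold change -1.02 ± 0.16 SE, edgeR adjusted p = 0.000172) and than Th1 cells (log2 fold change -1.24 ± 0.16 SE, edgeR adjusted p = 3.03e-06). Its partner Ruvbl1 was lower in Tfh than Th17 cells (log2 fold change -0.83 ± 0.18 SE, edgeR adjusted p = 0.00363), as was Znhit3, which acts with box C/D assembly (log2 fold change -1.05 ± 0.25 SE, edgeR adjusted p = 0.00666). Rpf2, of large subunit assembly, was lower in Tfh than Th1 cells (log2 fold change -0.99 ± 0.20 SE, edgeR adjusted p = 0.000386).

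Among the higher genes of this list was the helicase gene Ddx24, at 156 ± 24.96 in Th1, 237 ± 22.5 in Th17 and 337 ± 44.4 CPM in Tfh. Ddx24 was higher in Tfh than Th17 cells (log2 fold change 0.51 ± 0.13 SE, edgeR adjusted p = 0.0115) and than Th1 cells (log2 fold change 1.11 ± 0.13 SE, edgeR adjusted p = 1.27e-06). Nop53, of large subunit assembly, was lowest in Th17 cells, at 258 ± 27.8 in Th1, 165 ± 14.3 in Th17 and 232 ± 48.05 CPM in Tfh, and was higher in Tfh than Th17 cells (log2 fold change 0.49 ± 0.14 SE, edgeR adjusted p = 0.0165) and lower in Th17 than Th1 cells (log2 fold change -0.64 ± 0.14 SE, edgeR adjusted p = 0.000936). Ttf1, which ends Pol I transcription, was higher in Tfh than Th1 cells (log2 fold change 0.69 ± 0.17 SE, edgeR adjusted p = 0.00275), as was the helicase gene Ddx51 (log2 fold change 0.77 ± 0.20 SE, edgeR adjusted p = 0.00331). In Th17 cells the small subunit factors Imp4 (log2 fold change 0.90 ± 0.14 SE, edgeR adjusted p = 5.06e-05) and Nol6 (log2 fold change 0.90 ± 0.21 SE, edgeR adjusted p = 0.00244) and the methyltransferase gene Ftsj3 (log2 fold change 0.95 ± 0.15 SE, edgeR adjusted p = 7.93e-05) were higher than in Th1 cells. Riok1, a kinase of late small subunit assembly, was lower in Th17 than Th1 cells (log2 fold change -1.004 ± 0.17 SE, edgeR adjusted p = 0.000133) and in Tfh than Th1 cells (log2 fold change -1.05 ± 0.17 SE, edgeR adjusted p = 5.27e-05). Polr1d, a Pol I and Pol III subunit, was lower in Th17 than Th1 cells (log2 fold change -0.43 ± 0.10 SE, edgeR adjusted p = 0.00322).

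Ribosomal protein genes, the products that these factors assemble with RNA, differed mainly from Th1 cells. Of 79 cytosolic ribosomal protein genes 49 were lower in Tfh than Th1 cells (62%) and 34 lower in Th17 than Th1 cells (43%), but 2 in Tfh against Th17 cells (2.53%). Over all genes 25.2%, 17.8% and 9.98% were lower in those comparisons, so more genes were called lower against Th1 cells in general. Their summed level was 39970 to 57780 in Th1, 32910 to 36430 in Th17 and 29300 to 34670 CPM in Tfh. Genes of proliferation moved with the Tfh against Th17 difference. In Tfh cells 21 of 24 were lower (87.5%, beside 9.98% of all genes), at a median log2 fold change of -1.06. In Tfh against Th1 cells 16 were lower (66.7%) and 3 higher (12.5%), beside 25.2% and 24.1% of all genes. In Th17 against Th1 cells 11 were higher (45.8%), beside 19.0% of all genes. Their summed level was 5332 to 6244 in Th1, 7184 to 8131 in Th17 and 3599 to 4814 CPM in Tfh, in ranges that did not overlap. Their part in the ribosome biogenesis result was not tested.

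Myc itself stood at 575, 462, 733, 619 and 488 CPM in Th1 replicates 1 to 5, at 364, 346, 366, 424 and 387 in Th17 and at 139.8, 156, 194, 208 and 205 in Tfh. No library overlapped another condition, in the order Th1, Th17, Tfh. Myc was 2.09-fold lower in Tfh than Th17 cells (log2 fold change -1.06 ± 0.14 SE, edgeR adjusted p = 5.29e-05), 3.18-fold lower in Tfh than Th1 cells (log2 fold change -1.67 ± 0.15 SE, edgeR adjusted p = 2.49e-08) and 1.52-fold lower in Th17 than Th1 cells (log2 fold change -0.61 ± 0.14 SE, edgeR adjusted p = 0.00239). The means of 11 of the 41 genes had that order, 12 had the order Th17, Th1, Tfh, and 6 had the reverse of the order of Myc: Polr1e, Ubtf, Tsr1, Wdr12, Noc3l and Wdr74. Max, the partner through which Myc binds DNA, averaged 211 ± 24.5 in Th1, 212 ± 16.3 in Th17 and 224 ± 18.97 CPM in Tfh and did not pass in any comparison. Other genes of the Myc and Max network did. Of its 11 genes, with Myc and Max, 1 was higher and 1 lower in Tfh than Th17 cells. In Tfh against Th1 cells 3 were higher and 2 lower, and in Th17 against Th1 cells 4 and 2. Over all genes 16.8%, 49.3% and 36.9% were called in those comparisons.

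Beyond their roles, 7 of the 41 genes carry small nucleolar RNA genes inside them, 19 in all: Nop56, Nop58, Dkc1, Wdr43, Tsr1, Gnl3 and Ncl. Of these Nop56, Wdr43 and Gnl3 were lower in Tfh than Th17 cells, and Nop58, Dkc1, Tsr1 and Ncl did not pass in that comparison. There 31.7% of the 41 genes and 9.98% of all genes were lower. The call of Wdr43 was lost in 11 of 15 fits without 1 library and that of Gnl3 in 1. Of the 41 genes 16 overlap another gene that was counted. Among those with calls, besides Nop56 and Bysl, Nhp2 overlaps Rmnd5b, Gnl3 overlaps Glt8d1, Noc2l overlaps Klhl17 and Samd11, Bop1 overlaps Mroh1, Polr1e overlaps Fbxo10 and Lyar overlaps Zbtb49. Reads from such pairs cannot be told apart if counting ignored strand, and the setting is not given in the sources used here.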

How the data were processed

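The submitters sequenced RNA libraries made with the Lexogen SENSE kit from 100 ng RNA. The deposited values are raw counts of reads per gene by Entrez ID. Per the submitters' processing notes the tools were STAR 2.7.2b and featureCounts 1.6.4 with mm10, and the sources used here state no settings for them.

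Symbols came from the RefSeq table of GRCm38.p6, which named 25275 of 27179 IDs, holding 98.2% of counts. Genes passed edgeR's filterByExpr on the 3 conditions. A single quasi-likelihood model (edgeR 4.0.16, R 4.3.3, TMM, robust) over 15 libraries gave the 3 comparisons, with Benjamini-Hochberg adjustment over 12591 genes and a threshold of 0.05. The SE is the log2 fold change divided by the square root of F. GC content came from GENCODE transcripts (91.3% of tested genes). Alternatives were DESeq2 1.42.0, limma-voom (limma 3.58.1), glmTreat, other scalings and filters, a GC correction, a replicate block, and each library left out.

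The 41 genes, the lists and the tests were chosen with earlier results of these data known. Named genes were all 41, Myc and, from the other pathway genes, up to 3 per direction and comparison with the largest fold change among those called, with no overlap between the libraries of both conditions and a mean of at least 10 CPM in the higher one. Max was added as the partner of Myc. No 2 libraries of a condition agreed within sampling noise (lowest chi-square per gene 9.4). Depth, 4.87 M to 25.2 M counts, limits genes at a few CPM most.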

Additional observations from a re-analysis of the deposited data

Results flagged for a closer look

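In each condition the highest and the lowest library of every gene were compared with the other 4 by Dixon's test. Of 123 such groups 3 had a library that stood off, where chance alone gives about 1 in 20. Ubtf was low in Th17 replicate 2, at 146.91 CPM, beside 187.7 to 196.33 in the other Th17 libraries. Rrs1 was high in Tfh replicate 1, the library that stood apart on the second principal component, at 40.98 CPM beside 14.33 to 21.49. Noc3l was high in Th17 replicate 1, at 66.38 CPM beside 35.52 to 43.25.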

How the results depend on the processing

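Calls among the 41 genes were counted under RLE size factors, library size only, TMM without ribosome genes and no filter. A strict filter, DESeq2, limma-voom and a fit of only the 2 conditions compared were also used. These settings gave 10 to 14 in Tfh against Th17 cells (13 reported). They gave 14 to 18 in Tfh against Th1 (17) and 9 to 12 in Th17 against Th1 (11). In each of them the share of the 41 lay above that of all genes in Tfh against Th17. Against Th1 cells it lay below, though barely so in Tfh against Th1 without a filter (36.6% against 36.8%). All genes were called at 10.6% to 21.5%, 36.8% to 52.4% and 26.7% to 40% in the 3 comparisons. A test for more than 2-fold change (edgeR glmTreat) called 138, 1971 and 1326 of all genes in those comparisons, but 0, 1 and 0 of the 41 and 0, 0 and 0 of the 119 other pathway genes. At an unadjusted p under 0.05 glmTreat gave 0, 3 and 0 of the 41 and 0, 1 and 0 of the 119. A GC correction gave more calls. In Tfh against Th17 it called 3392 of all genes (29.5%) and 19 of the 41 (46.3%). It also called 35 of the 119 there, a share near that of all genes. In Tfh against Th1 it called 23 of the 41 (56.1%), with 60.5% of all genes. In Th17 against Th1 it called 17 of the 41 (41.5%), with 49.5% of all genes. The replicate block gave 20 of the 41 (48.8%) in Tfh against Th17, with 23.4% of all genes, and 17 (41.5%) in Th17 against Th1, with 43.6% of all genes. GC correction with the replicate block gave 3917 of all genes, 26 of the 41 and 42 of the 119 in Tfh against Th17, 61 of the 119 in Tfh against Th1, and 24 of the 41 and 55 of the 119 in Th17 against Th1. All genes were then called at 34.1%, 63.5% and 53.1%. The cause was not tested. The numbers share no stated origin: 7 of 15 same-number pairs deviated together (correlation over 0.1), and 5 of 15 libraries correlated best with their own number. The median correlation was 0.061 for same-number pairs and -0.0225 for the others. The largest, 0.615, was of libraries with different numbers, Th1 replicate 3 and Th17 replicate 4. Leaving out each library gave 7 to 14 of the 41 and 10 to 22 of the 119 in Tfh against Th17, 13 to 20 and 32 to 40 in Tfh against Th1, and 7 to 14 and 20 to 33 in Th17 against Th1. All genes were called at 12.6% to 18.7%, 45.1% to 49.6% and 32.1% to 39.5% in those fits. For the 119, Tfh against Th17 gave 10 without Th17 replicate 3 or 5 or Tfh replicate 5, and 11 without Th17 replicate 1 or 2 or Tfh replicate 4, beside 18 reported. Th17 against Th1 gave 20 and 21 without Th17 replicates 3 and 5, beside 32. Of 3321 fold changes of the 41 genes under these settings, 179 lost a call (40 of them under glmTreat) and 105 gained one. In 91 the sign changed, and none of those was called in either fit.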
